A study of Mus musculus with 4 samples.

Results

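The miR-29 family comprised 7 of the 1038 known miRNAs listed in the small RNA sequencing of mouse medial prefrontal cortex. The members were taken by name, as all mature arms of miR-29a, miR-29b and miR-29c. They are the 3p arms mmu-miR-29a-3p, mmu-miR-29b-3p and mmu-miR-29c-3p, and the 5p arms mmu-miR-29a-5p, mmu-miR-29b-1-5p, mmu-miR-29b-2-5p and mmu-miR-29c-5p. Male C57BL/6J mice, whose strain the sample labels shorten to C57BL/6, entered the study as juveniles of about 3 weeks of age and, after a week of adaptation, were put under chronic unpredictable mild stress (CUMS). The stress lasted 3 weeks, in which these mice were housed alone. Added to this, at random, were a disturbed light cycle, flashing light, noise, confinement and uncomfortable cages. Only stressed mice with depression-like behavior in every test were sequenced, so the CUMS group stands for a selected part of the stressed mice. Controls were mice of the same strain kept without the stressors. Each group had 2 libraries, and the comparison asks which miRNAs differ in this cortical area between depression-like mice and controls.

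A miRNA precursor is a hairpin that is cut into a 5p and a 3p arm. One arm, the guide, is usually loaded into an Argonaute protein and pairs with messenger RNAs through its seed, bases 2 to 8, while the other arm is mostly degraded. In the miR-29 family the 3p arms are the guides. They are known to repress collagens and other matrix genes, DNA methyltransferases and TET enzymes, and pro-apoptotic BH3-only genes. In the brain the family is known to become abundant as neurons mature after birth.

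All 7 members were found in the RefSeq miRNA table (build GRCm38.p6). They are printed 5′ to 3′ with the seed in capitals, because the arms differ in how far reads can tell them apart. The 3p arms share a single seed, which no other mouse miRNA of the table carries.
mmu-miR-29a-3p: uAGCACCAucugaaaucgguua
mmu-miR-29b-3p: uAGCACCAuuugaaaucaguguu
mmu-miR-29c-3p: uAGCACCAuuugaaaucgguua
The 5p arms have 4 different seeds, so they do not form a seed family with the guides or with one another.
mmu-miR-29a-5p: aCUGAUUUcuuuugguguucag
mmu-miR-29b-1-5p: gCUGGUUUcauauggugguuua
mmu-miR-29b-2-5p: cUGGUUUCacaugguggcuuagauu
mmu-miR-29c-5p: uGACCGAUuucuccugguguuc
Counted from 1 at the 5′ end, miR-29a-3p and miR-29c-3p differ by 1 substitution, C10U. From miR-29a-3p to miR-29b-3p there are 4 substitutions in the first 22 bases, C10U, G18A, U21G and A22U. From miR-29b-3p to miR-29c-3p there are 3, A18G, G21U and U22A. The authors matched reads of at least 18 nt without mismatches, so a read of miR-29a-3p or miR-29c-3p spans position 10 and falls to 1 of them. miR-29b-3p and miR-29c-3p share their first 17 bases, 1 base fewer than the shortest read. The hairpins Mir29b-1 and Mir29c, however, share a run of 22 bases, and Mir29b-2 and Mir29c one of 19, so a read that begins before the annotated start could match both. How the authors counted such reads is not stated. Of the 5p seeds, only that of miR-29b-2-5p occurs in another mouse miRNA of the table, miR-6338. The miR-29b-1-5p arm is annotated to begin 1 base earlier in the shared stretch than miR-29b-2-5p, which gives these copies of miR-29b different seeds.

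The 4 precursors lie in 2 clusters. Mir29a (chr6:31062660-31062747) and Mir29b-1 (chr6:31063023-31063093) are on the minus strand of chromosome 6 and 275 bases apart. GENCODE M21 places Mir29a in no other gene, and Mir29b-1 overlaps the exon of the long noncoding RNA Gm27019 by 2 bases. Mir29b-2 (chr1:195037040-195037120) and Mir29c (chr1:195037547-195037634) are on the plus strand of chromosome 1 and 426 bases apart. Both lie inside an exon of the noncoding RNA A330023F24Rik, and on the opposite strand the same bases belong to an exon of Cd46, a complement regulator. Mir29b-1 and Mir29b-2 give the same 3p arm, so miR-29b-3p reads cannot be assigned to a cluster. Only the 5p arms separate these copies of miR-29b, while miR-29a-3p comes from chromosome 6 alone and miR-29c-3p from chromosome 1 alone.

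The deposited values are means of normalized counts for each group, that is reads divided by DESeq size factors. The reads of the single libraries were recovered from these means and are called libraries a and b, letters that carry no replicate number. The control libraries held 10533646 and 10783592 miRNA reads and the CUMS libraries 10427625 and 9589323. A floor of 3 reads corresponded to 2.78e-05% to 3.13e-05% of a library's total. Wilson and exact intervals and floors cover counting error only, since the reads have no molecular identifiers, whereas the DESeq2 intervals also include the spread between libraries. Control library b stood apart from the other libraries. In it the 14 miRNAs of the miR-183 and miR-200 clusters took 9.32% of the reads, against 0.0393% in control library a and 0.0503% and 0.0722% in CUMS libraries a and b. Log2 ratios of the members without control library b are therefore given beside the main ones.

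The 3p arms differed in level by more than 1 order of magnitude. Reads of miR-29a-3p, listed as library a then b, were 19208 and 17602 in control versus 21940 and 19885 in CUMS. It was number 52 of the 1038 miRNAs by mean normalized count. miR-29c-3p had 2443 and 2029 reads in control versus 2584 and 2499 in CUMS and was number 129. miR-29b-3p had 1063 and 772 reads in control versus 981 and 1033 in CUMS and was number 171. The order miR-29a-3p, miR-29c-3p, miR-29b-3p was the same in each of the 4 libraries, and the lowest value of one arm was above the highest of the next. The 5p arms were all under 100 reads per library. miR-29c-5p had 45 and 57 reads in control versus 66 and 44 in CUMS, and miR-29a-5p had 44 and 52 in control versus 39 and 22 in CUMS, so miR-29c-5p was above miR-29a-5p in each library, by 1 read in control library a. miR-29b-2-5p had 8 and 14 reads in control versus 14 and 13 in CUMS. miR-29b-1-5p was at the limit of detection, with 3 and 1 reads in control versus 0 and 6 in CUMS. All 7 members had at least 5 reads in some library, the minimum for the fits, as did 719 of the 1038 miRNAs.

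**Figure D1:**
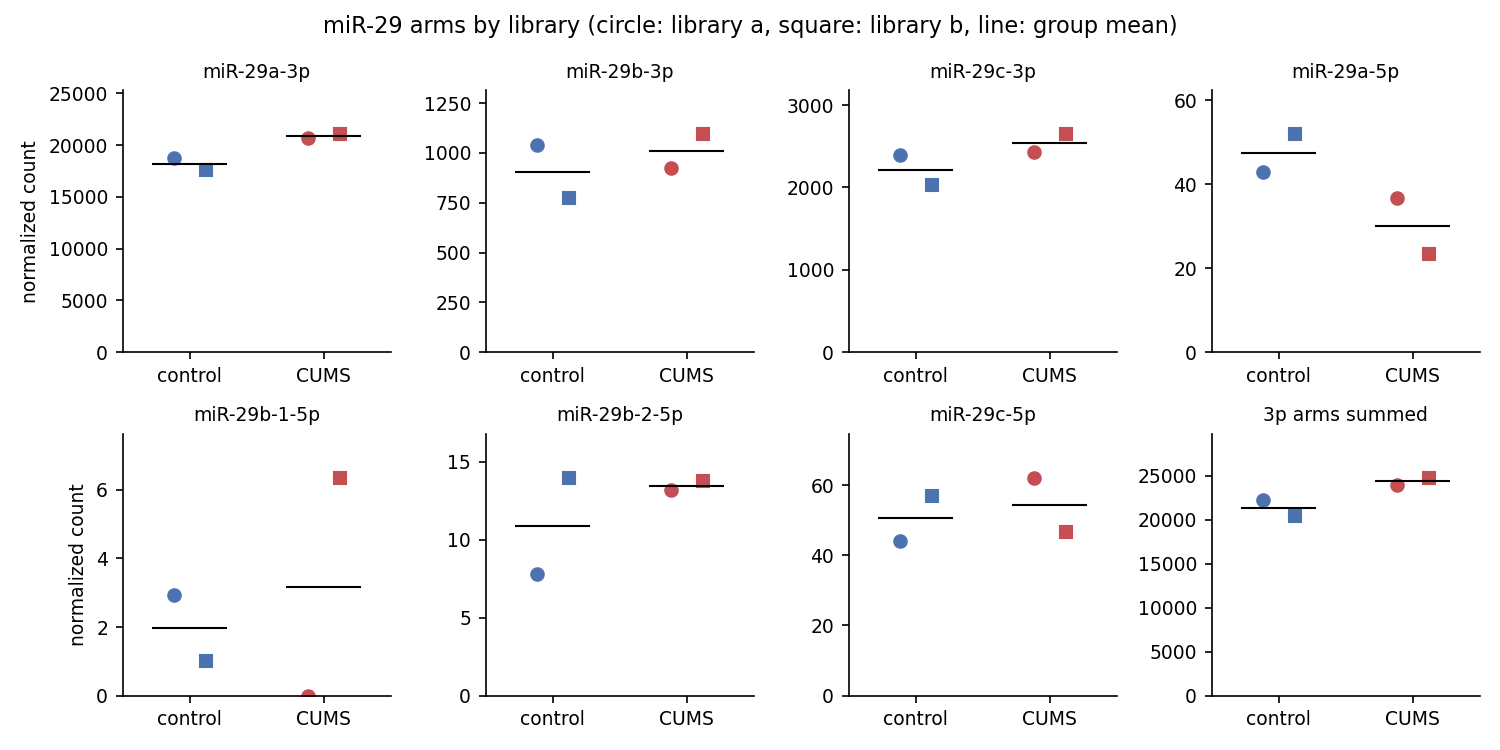
Normalized counts (reads divided by DESeq size factors, linear axes from 0) of the 7 miR-29 arms and of the summed 3p arms in control and CUMS libraries, with lines at the group means. miR-29a-3p lies at 18788 and 17595 in control and at 20658 and 21068.5 in CUMS, while the groups of miR-29b-3p overlap.

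The summed 3p arms, the measure of the family's guide level, were slightly higher in CUMS, by less than the errors of the fits allow to be told from 0. After division by the size factors the sums were 22218 and 20395 in control versus 24015 and 24811 in CUMS. Both CUMS libraries were thus above both control libraries. The CUMS mean was 1.15 times the control mean, a log2 ratio of 0.20, with an SD between libraries of 0.087 in control and 0.033 in CUMS (log2 scale, n = 2 each). The two-sided exact permutation test over libraries gave p = 0.333, the smallest that 2 against 2 libraries can give. The DESeq2 fit gave a 95% interval for the fold from 0.906 to 1.44, which holds equal levels as well as a moderate increase. Without control library b the log2 ratio was 0.14. RNA of a whole tissue piece was measured, in which more cells of a type and more miRNA per cell cannot be told apart.

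Among the single guides, miR-29a-3p and miR-29c-3p had both CUMS libraries above both control libraries, and miR-29b-3p did not. The normalized count of miR-29a-3p was 18788 and 17595 in control versus 20658 and 21068.5 in CUMS. Its log2 ratio was 0.20 (edgeR adjusted p = 0.867), and without control library b it was 0.15. miR-29c-3p, at 2390 and 2028 in control versus 2433 and 2648 in CUMS, had a log2 ratio of 0.20 (edgeR adjusted p = 0.931). CUMS library a exceeded control library a by little, and without control library b the log2 ratio was 0.088, against 0.32 without control library a. miR-29b-3p was at 1040 and 772 in control versus 924 and 1094 in CUMS. The control libraries of miR-29b-3p differed 1.35-fold, more than the group means did, and without control library b its log2 ratio turned from 0.16 to -0.043, against 0.39 without control library a.

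Of the 5p arms, miR-29a-5p alone had non-overlapping groups, with lower values in CUMS. When reads were scaled to the library total instead, miR-29b-2-5p joined it, with higher values in CUMS, but not once the miR-183 and miR-200 clusters were left out of the total. The normalized count of miR-29a-5p was 43.0 and 52.0 in control versus 36.7 and 23.3 in CUMS. The log2 ratio was -0.66, opposite in sign to that of its own 3p arm. The fits did not tell this from 0 (edgeR adjusted p = 0.849), and the DESeq2 95% interval on the log2 scale ran from -1.86 to 0.53. Without CUMS library a the edgeR log2 fold change was -1.08 with an unadjusted p = 0.0455 (adjusted p = 0.659, with 0.659 to 0.999 over the libraries left out), while without CUMS library b it was -0.38 (adjusted p = 0.797). Without control library b the log2 ratio was -0.52. miR-29c-5p, the arm of the other cluster with most reads, had a log2 ratio of 0.11, which turned to -0.12 without CUMS library a and to -0.067 without control library a, and was 0.31 without control library b. miR-29b-2-5p stood at 7.83 and 14.0 in control versus 13.2 and 13.8 in CUMS, a log2 ratio of 0.30 that turned to -0.054 without control library a and was 0.78 without control library b. For miR-29b-1-5p, 4 reads in control against 6 in CUMS gave a ratio of 1.51 with an exact 95% counting interval from 0.359 to 7.29. The log2 ratio of its group means was 0.69, with 0.12 without control library b, 1.67 without control library a and 1.69 without CUMS library a. A change of this arm was not detectable at this depth.

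The members were read against the whole table. Of the 7 members, 2 had non-overlapping groups with higher values in CUMS, where 16.7% of the 719 miRNAs did, and 1 had lower values, where 17.1% did. The median log2 ratio was 0.20 over the members and 0.021 over the 701 miRNAs with reads in both groups. Among the 215 miRNAs with a mean normalized count of at least 500, 32.6% had a log2 ratio farther from 0 than that of miR-29a-3p. With a fold past 1.5 and an unadjusted p under 0.05 as the rule, edgeR called 0 of the 7 members and 3.34% of all 719 miRNAs, and DESeq2 called 0 members and 2.5% of the miRNAs. The members with an unadjusted p under 0.05 were 0 in edgeR and 0 in DESeq2. No miRNA of the table had an adjusted p under 0.05 in edgeR (30 had an unadjusted p under 0.05) or in DESeq2 (24 had one).

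**Figure D2:**
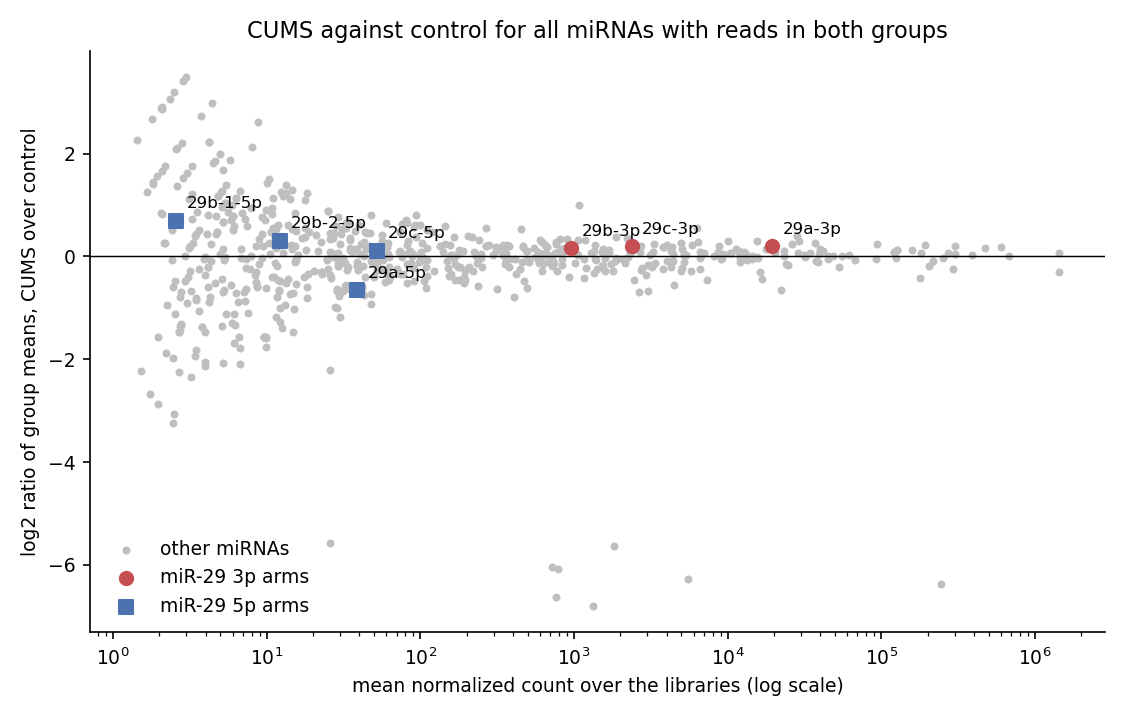
Log2 ratio of the group means, CUMS over control, against mean normalized count (log axis) for the 701 miRNAs past the minimum of 5 reads that have reads in both groups. The miR-29 3p arms (red circles) lie between 0.16 and 0.20, inside the cloud of other miRNAs of like level (grey), and the 5p arms (blue squares) lie where the cloud is wide. The grey points near -6 are miRNAs of the miR-183 and miR-200 clusters, which were high in control library b.

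The make-up of the guide pool was nearly constant. miR-29a-3p took 84.6% (95% Wilson interval 84.1 to 85.0) and 86.3% (85.8 to 86.7) of the 3p reads in control libraries a and b. In CUMS libraries a and b it took 86.0% (85.6 to 86.4) and 84.9% (84.5 to 85.4). The control libraries differed from each other by more than the group means, which were 85.4% and 85.5% (two-sided exact permutation p = 1, n = 2 each). miR-29c-3p took between 9.94% and 10.8% and miR-29b-3p between 3.78% and 4.68%. These shares are ratios within a library and do not depend on the size factors.

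The clusters were compared by the guides that each alone gives and by the 5p arms. The reads of miR-29a-3p (chromosome 6) were 7.86 and 8.68 times those of miR-29c-3p (chromosome 1) in control and 8.49 and 7.96 times in CUMS. The groups overlapped (two-sided exact permutation p = 1), so no shift between the clusters was seen at the depth of the guides. The 5p arms had 85 to 124 reads per library. The chromosome 6 arms, miR-29a-5p and miR-29b-1-5p, gave 47 of 100 and 53 of 124 of the 5p reads in control and 39 of 119 and 28 of 85 in CUMS. These are 47% (95% Wilson interval 37.5 to 56.7) and 42.7% (34.4 to 51.5) in control and 32.8% (24.99 to 41.6) and 32.9% (23.9 to 43.5) in CUMS. The CUMS libraries were below both control libraries by 12.01 points on average, and by 14.1 points without control library b, and the intervals of the groups overlapped. In the two-sided exact permutation test p was 0.333, the minimum for this design. Of the 5p reads, the mean share of miR-29a-5p was 43.0% in control and 29.3% in CUMS, lower without overlap. The shares of miR-29c-5p (45.5% and 53.6%) and miR-29b-2-5p (9.65% and 13.5%) were higher without overlap, and that of miR-29b-1-5p (1.90% and 3.53%) overlapped. These shares add up to the whole, so they do not move independently. Within miR-29a, the 5p arm was 0.229% and 0.295% of the reads in control and 0.177% and 0.111% in CUMS, again without overlap. Of 124 hairpins with both arms in the table and at least 1000 reads, 16.1% had a lower 5p share in CUMS without overlap and 16.1% a higher one. Within miR-29c, it was 1.81% and 2.73% in control versus 2.49% and 1.73% in CUMS, with overlap. The reads of miR-29b-2-5p were 68.4% to 100% of those of both miR-29b 5p arms in a library.

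**Figure D3:**
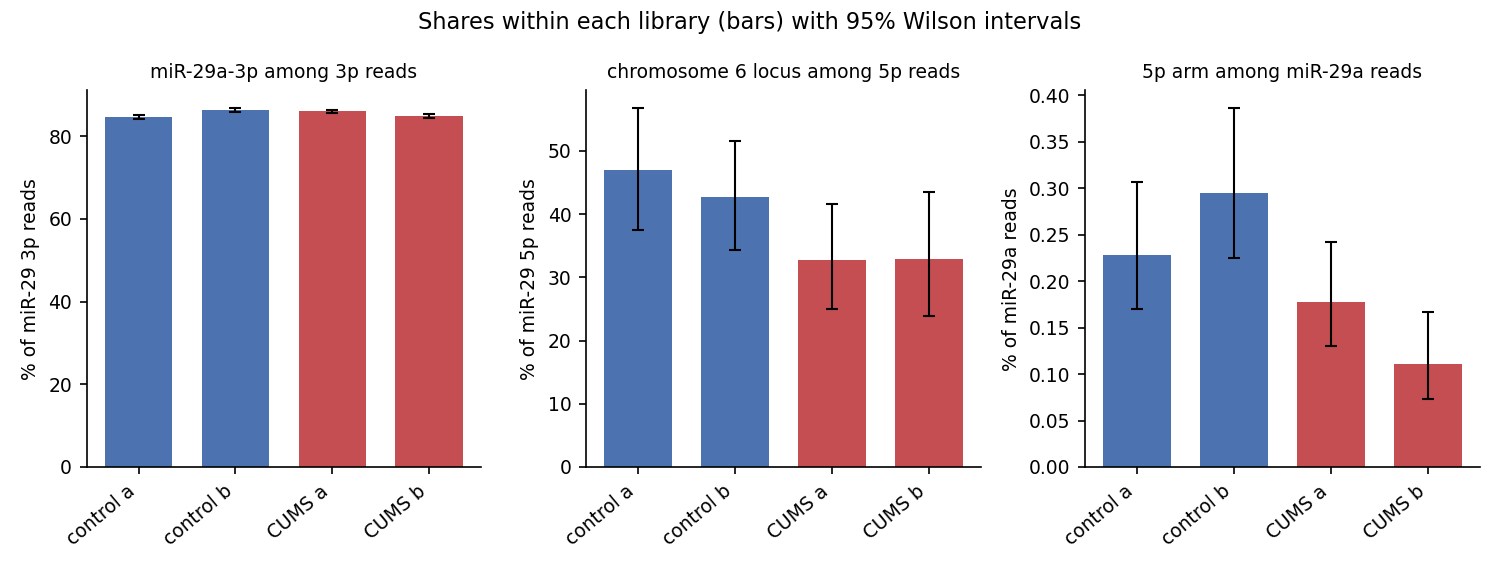
Shares within each library, with 95% Wilson intervals as error bars: miR-29a-3p among the 3p reads, the chromosome 6 arms among the 5p reads, and the 5p arm among miR-29a reads. The first is nearly flat at 84.6% to 86.3%, and the other panels are lower in both CUMS libraries (red) than in both control libraries (blue), with wide intervals.

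Arm preference differed between members of the family. Over the 4 libraries, miR-29a-3p had 501 times the reads of miR-29a-5p, and miR-29c-3p had 45.1 times those of miR-29c-5p. In single libraries the ratio ran from 338.5 to 904 for miR-29a and from 35.6 to 56.8 for miR-29c, so the ranges did not meet. The table holds 124 hairpins with both arms, at least 1000 reads and no arm whose sequence is in another hairpin of the RefSeq table. In these the median ratio of the major to the minor arm was 62.2, and 58 had the 3p arm as the major one. miR-29a was number 35 in this order and miR-29c number 67. The miR-29b hairpins were left out because they share their 3p arm.

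**Figure D4:**
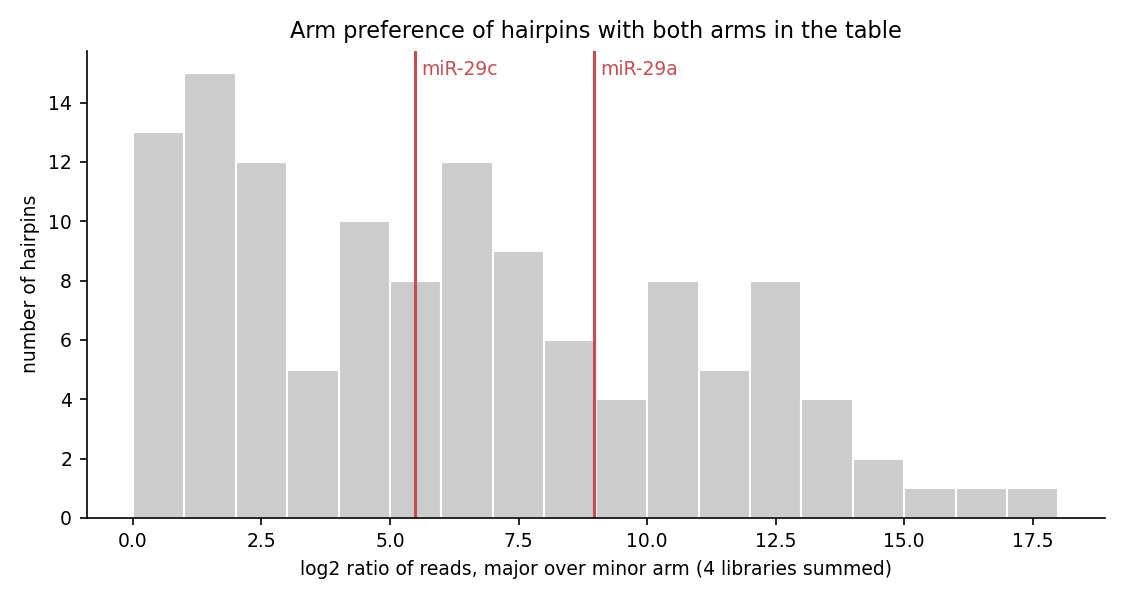
Number of hairpins by the log2 ratio of major to minor arm reads, summed over the 4 libraries, for 124 hairpins with both arms in the table. Red lines mark miR-29a at 8.97 and miR-29c at 5.49, on both sides of the middle of the distribution.

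When 884 of the 1038 miRNAs, those found in the RefSeq table by name, were grouped by seed, the miR-29 guides together were number 32 of 760 seeds by summed level. miR-29a-3p lay next to miR-341-3p above it and miR-1843a-5p below it. These had mean normalized counts of 20443 and 19459, against 19527 for miR-29a-3p, and the ranges over libraries overlapped. The neighbors of miR-29c-3p (2375) were miR-673-3p (2382) and miR-488-3p (2327), and those of miR-29b-3p (957) were miR-376b-5p (1013) and miR-222-5p (938). None of these neighbors was separated from its guide beyond the spread of the libraries.

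The pattern over libraries was compared as the root mean square difference of centred log2 values over the 4 libraries, a description that 4 points can give for many of 288 candidates. The nearest to miR-29a-3p were miR-22-3p (0.014), miR-1981-5p (0.028) and miR-125b-1-3p (0.029). The nearest to miR-29c-3p were miR-1843a-3p (0.012), miR-142a-5p (0.034) and miR-873a-3p (0.041), and to miR-29b-3p they were miR-101a-3p (0.044), miR-370-3p (0.050) and miR-137-3p (0.053). Between the guides themselves the difference was 0.060 for miR-29a-3p with miR-29c-3p, 0.083 for miR-29b-3p with miR-29c-3p and 0.14 for miR-29a-3p with miR-29b-3p. miR-29b-3p, which shares a hairpin cluster with each of the others, was nearer to miR-29c-3p than to miR-29a-3p. In turn, miR-29c-3p was nearer to miR-29a-3p, which comes from the other cluster, than to miR-29b-3p. A link of these patterns to the clusters was not tested.

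Marker miRNAs of the cell types in the tissue were read beside these values. The 6 neuronal markers, led by miR-9-5p, summed to 855621 and 728614 normalized counts in control and 820250 and 965912 in CUMS, with overlap. The log2 ratio of this sum was 0.17. All 6 had positive log2 ratios, from 0.069 (miR-128-3p) to 0.40 (miR-124-3p), where 52.3% of all 719 miRNAs had a higher mean in CUMS. Among the 6 markers, 2 had both CUMS libraries above both control libraries, miR-124-3p and miR-132-3p, where 16.7% of all 719 miRNAs did. The 4 oligodendrocyte markers, led by miR-338-3p, summed to 8551 and 9238 in control versus 6866 and 7983 in CUMS, a log2 ratio of -0.26 without overlap, and 3 of the 4 were lower without overlap, where 17.1% of all miRNAs were. The ratio was -0.20 without control library b and -0.16 without CUMS library a. The 2 choroid plexus markers, led by miR-204-5p, summed to 16942 and 22015 in control versus 15959 and 12627 in CUMS, a log2 ratio of -0.45 without overlap, and 1 of them, miR-204-5p, was itself lower without overlap. Here it was -0.25 without control library b and -0.29 without CUMS library b. The groups overlapped for the sums of the 3 astrocyte-linked markers (log2 ratio 0.051, led by miR-26a-5p), the 5 immune markers (0.021, miR-150-5p), the 3 red cell markers (0.089, miR-486a-5p) and the 2 endothelial markers (0.071, miR-126a-5p). Lower in CUMS without overlap were 1 of the 5 immune markers, miR-142a-3p, and 1 of the 2 endothelial ones, miR-126a-3p. Of all miRNAs, 17.1% were. With overlapping groups, the log2 ratios of miR-142a-5p (0.21), miR-150-5p (0.022) and miR-126a-5p (0.10) were positive. Those of the immune markers miR-223-3p (-0.66) and miR-146a-5p (-0.28) were negative, also with overlap. The red cell sum was mostly miR-486a-5p (0.088), and the ratios of miR-451a (0.19) and miR-144-3p (0.62) were larger, with overlap. Likewise miR-26a-5p (0.049) made up most of the astrocyte-linked sum, beside miR-23b-3p (0.055) and miR-23a-3p (0.32), all with overlap. The 8 epithelial and sensory markers, led by miR-182-5p, summed to 4047 and 1004810 in control versus 4936 and 7329 in CUMS. Of these miR-200c-3p had 0 reads in the other 3 libraries and miR-96-5p had 0 in control library a. The part of these differences in the miR-29 values was not tested.

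The seed was also set against messenger RNAs, as a description with no expression values. The complement of the shared seed, TGGTGCT, was searched on the transcript strand of the longest 3′ UTR of each gene in GENCODE M21. It occurs in 2758 of 20846 such 3′ UTRs (13.2%). Of 18 textbook targets of miR-29, 16 hold at least 1 copy and 8 hold at least 2. Their 3′ UTRs are longer than usual, with a median of 1400.5 bases against 975, and they were chosen as known targets, so the higher share follows in part from the choice. Among the genes of DNA methylation, Tet3 had 8 copies, Tet1 had 7, Dnmt3a had 5 and Dnmt3b had 1. Of the matrix genes, Eln (elastin) had 3, Fbn1 and Col4a2 had 2 each, Col1a1, Col3a1 and Col4a1 had 1 each, and Col1a2 and Sparc had 0. Of the cell death genes, Hrk had 3, Bbc3 had 2, and Bmf, Bcl2l11 and Mcl1 had 1 each. Bace1, the beta-secretase, had 1. The gene with most copies in each of the first 3 groups is shown by its first match that is followed by an A, the base opposite the first U of the guides. The match is in capitals, with the bases before it and the base after it in lower case.
Tet3 site: aaatagtctaataaaTGGTGCTa
Eln site: cgacctcatcaacgtTGGTGCTa
Hrk site: cacttcacagtttctTGGTGCTa
On GRCm38 the Tet3 site lies at chr6:83364336-83364358 (minus strand), the Eln site at chr5:134703736-134703758 (minus strand) and the Hrk site at chr5:118185087-118185109 (plus strand), each within the 3′ UTR. The match begins at base 3699 of the Tet3 3′ UTR, base 38 of the Eln 3′ UTR and base 692 of the Hrk 3′ UTR. Only the complement of bases 2 to 8 was searched. Shorter matches, and 7-base sites made of the complement of bases 2 to 7 and an A, were not, so a count of 0 does not exclude such sites. A match does not show that the site is used in this tissue.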

How the data were processed

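Small RNA of the medial prefrontal cortex was sequenced in 2 control and 2 CUMS libraries. The authors matched reads of 18 to 25 nt without mismatches to miRBase precursors and counted those overlapping a mature miRNA by at least 16 nt. The submitters' notes name Bowtie, DESeq and mm10. The signal deposited by the authors is a mean of normalized counts over the libraries of a group, in columns without group names. The columns were assigned because the paper lists their values under control and CUMS. The deposited fold, log2 fold, p and adjusted p columns were not used.

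A group mean is a sum of whole reads, each times the step of its library, and all 1038 values of both groups were solved as such (100%, relative residual under 1e-09). For 2 control values another pair came close. The fits were tested on simulated data with a set dispersion of 0.02, in which 200 of 599 miRNAs were changed 4-fold. At an adjusted p under 0.05 edgeR called 188 of these and DESeq2 173, with 4 and 6 calls among the unchanged ones. Smaller changes and other dispersions were not simulated. The test therefore does not show how many real changes these fits would find in the measured libraries. Main results are log2 ratios of the authors' means with two-sided exact permutation tests. edgeR 4.0.16 (quasi-likelihood, TMM) and DESeq2 1.42.0 (Wald) in R 4.3.3 were fitted to the recovered reads of the 719 miRNAs that reached 5 reads in some library, with group as the factor and Benjamini-Hochberg adjustment over all of them. Shares have 95% Wilson intervals. Python 3.11.15, numpy 2.4.6, pandas 2.3.3, scipy 1.17.1 and matplotlib 3.10.9 were used.

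Named miRNAs were the 7 members, the neighbors in level and the 3 nearest patterns of each 3p arm (candidates had means of 100 or more in both groups), and marker lists. Members and lists were chosen with earlier results of these data known. The minimums of 500 counts and 1000 reads in single descriptions were set after the values were seen. Alternatives were total scaling, also without the miR-183 and miR-200 clusters, the fits, a pseudocount of 1, no filter, RLE factors, an adjusted p rule and leaving out each library. mRNA sequencing was left out.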

Additional observations from a re-analysis of the deposited data

How the results depend on the processing

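The log2 ratio of the summed 3p arms stayed positive under all alternatives run, between 0.16 and 0.27 under total scaling, the fits and the pseudocount and between 0.14 and 0.26 with a library left out. miR-29a-3p and miR-29c-3p stayed positive and miR-29a-5p stayed negative in the same settings, the last between -1.03 (without CUMS library a) and -0.37 (without CUMS library b). With a library left out, the ratio of miR-29b-3p ran from -0.043 (without control library b) to 0.39, that of miR-29b-2-5p from -0.054 (without control library a) to 0.78, and that of miR-29c-5p from -0.12 (without CUMS library a) to 0.31, with -0.067 without control library a. miR-29c-3p ran from 0.088 (without control library b) to 0.32 (without control library a), and miR-29b-1-5p from 0.12 (without control library b) to 1.69 (without CUMS library a). The difference in the share of miR-29a-3p among 3p reads, 0.052 points with all libraries, ran from -0.80 (without control library a) to 0.91 and was -0.50 without CUMS library a. The cause was not tested. The lower share of the chromosome 6 arms remained, between -14.1 and -9.88 points. The summed oligodendrocyte markers stayed lower, between -0.37 and -0.16, and the choroid plexus markers between -0.63 and -0.25, with a library left out, also added after seeing the data. The members called by edgeR were 0 with all libraries and between 0 and 1 with a library left out, the 1 being miR-29a-5p without CUMS library a, where 5.43% of 700 miRNAs were called. With all libraries they were also 0 with DESeq2, where 2.5% of the 719 miRNAs were called. The adjusted p rule gave 0 as well, but no miRNA of the table passed it, so it says nothing about the members. Without the filter and with RLE factors they were 0, and no share of all miRNAs is given for these settings. In the fits with a library left out, the lone library is assumed to vary like those of the other group. The members with non-overlapping groups were 3 (33.8% of all 719 miRNAs), 4 under total scaling (34.5%), where miR-29b-2-5p joined (its groups overlapped again with the miR-183 and miR-200 clusters out of the total), and 5 without any one library, an alternative chosen after seeing the data. Of all miRNAs, 63.4% and 61.3% then had non-overlapping groups without control library a or b, and 71.1% and 68.4% without CUMS library a or b.

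No paired analysis was possible because the recovered libraries cannot be matched to replicate numbers, so replicate number as a block was not run. For miR-29b-1-5p the ratio without CUMS library b could not be given, since CUMS library a had 0 reads. With 2 libraries a group, no permutation test can pass 0.05, and at 85 to 124 reads of the 5p arms a library, shares carry wide counting intervals.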
